A study of Mus musculus with 32 samples.

Results

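Mouse epidermal organoids kept in culture for up to 6 months were compared with organoids kept for up to 3 months. The comparison took 12 of the 32 libraries of the series, 6 on each side. The late side was all 6 libraries labelled as within 6 months, at passages 23 to 30. The early side was the 6 libraries within 3 months, at passages 7 to 12, whose medium held forskolin and a fibroblast growth factor. All 12 came from skin of Bl/6 mice with no genetic change named, and all cultures received forskolin, a compound that raises cyclic AMP. The 6 late libraries were grown with Fgf1. Of the early libraries 2 were grown with Fgf1 and 4 with Fgf10, so each change was also read against the 2 early Fgf1 libraries, where the medium was the same. Cells were harvested after 7 days and pooled in bulk, so fewer cells of a type and less RNA per cell cannot be told apart. Whether the replicates are separate animals or cultures is not in the labels, so the p-values measure the spread among these libraries alone, part of which may be technical.

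The epidermis is renewed by basal keratinocytes, which carry Krt5 and Krt14 and are held to the basement membrane by integrins. Cells that leave the basal layer switch to Krt1 and Krt10 and later make loricrin and other proteins of the cornified envelope. Keratinocytes in wounds and in culture also make an activated set of keratins, Krt6, Krt16 and Krt17, with small proline-rich proteins and cytokines.

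Total counts were 1489911 to 2562017 in early libraries (median 1849910) and 412582 to 3127190 in late ones (median 707361), with 11889 to 12895 and 10511 to 12529 genes detected. The labels name no batch, so files with the same list of gene names were grouped here as a source set. The 12 files fell into 6 such sets: early libraries in sets 1 and 2, late libraries in sets 8 to 11. Sets 10 and 11 listed 12317 and 12316 names, and what a set stands for is not known. No set held both sides, so source set and culture age cannot be told apart. Late replicates were less alike (Spearman correlation across genes 0.616 to 0.895) than the early Fgf10 replicates (0.91 to 0.934) or the early Fgf1 pair (0.918). Counts of Y-linked genes were above 20 CPM in 3 of 6 libraries on each side. The keratinocyte markers Krt5, Krt14, Trp63, Cdh1, Dsp and Epcam were all detected, at a summed 32717 to 49209 CPM (counts scaled to the size of each library) in early and 17696 to 30141 in late libraries. Among markers of other cells, the fibroblast list summed to 30.7 to 535 CPM in early and 225 to 1003 in late libraries, with Lum, Pdgfrb, Dpt and Mfap5 at 0. The Langerhans and T cell list summed to 3.96 to 25.1 and 13.6 to 181 CPM, with Cd207, Cd3e, Cd3g, Lyz2 and Tyrobp at 0. The Merkel cell list summed to 1.58 to 18.3 and 33.5 to 223 CPM with Atoh1 at 0, and the Schwann and neural crest list to 15.2 to 24.8 and 27.4 to 75 CPM with Sox10, S100b, Gfap and Foxd3 at 0. Endothelial and melanocyte lists stayed at or under 13.6 and 5.92 CPM. The part of such cells in the results was not tested.

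Late organoids had far less mRNA of Krt16, Sprr1a, Sprr1b, Tubb3, Thbd, Gjb6 and Cpa4, and more of a set that includes Id2, Txnip and Fbln1. Of 8109 genes tested, 1542 passed edgeR's quasi-likelihood test at an adjusted p of 0.05, which is 19.0% of them. Of all genes tested 11.2% were higher (908) and 7.82% lower (634) in late organoids. Fold change was over 4 for 166 of the higher and 71 of the lower genes. The ranges of CPM on the 2 sides did not overlap for 8.94% of genes tested (725), of which 4.11% of genes tested lay higher and 4.83% lower. All 1542 had the same sign against the early Fgf1 libraries alone. That comparison shares those 2 libraries and all 6 late ones with the pooled one, so the shared sign is not an independent check. In that smaller contrast 261 genes passed (3.22%), and against the 4 Fgf10 libraries alone 959 did (11.8%). The median log2 fold change over all genes tested was 0.05.

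**Figure D1:**
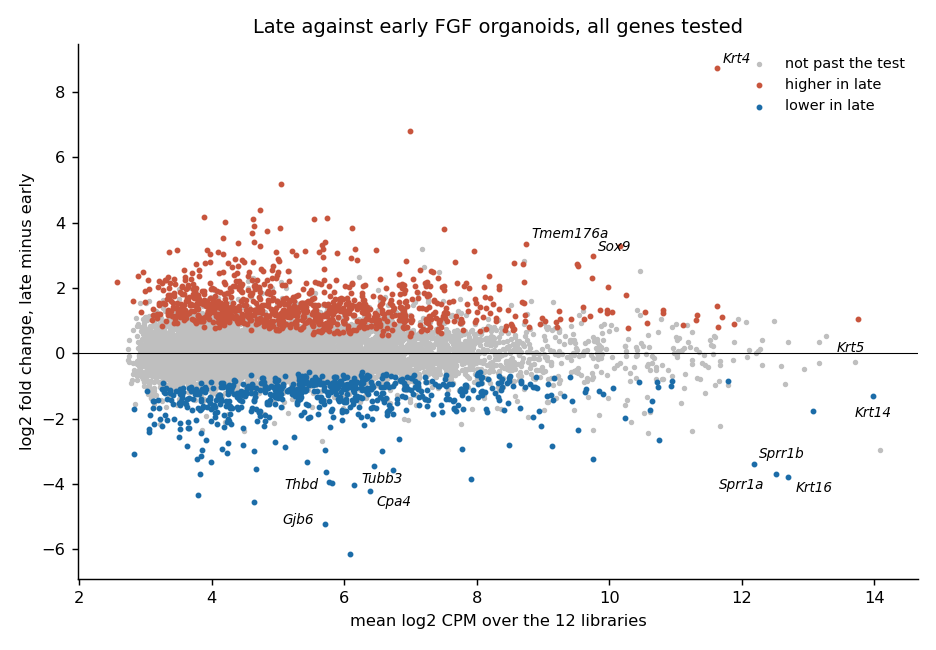
Mean log2 CPM over the 12 libraries (horizontal) against the log2 fold change of late minus early organoids (vertical) for the 8109 genes tested, with one point per gene. Red points are the 908 genes higher in late organoids, blue points the 634 lower, and grey points did not pass the test. Krt16, Sprr1a and Sprr1b stand out as abundant genes that were lower, and Krt4 has the highest fold change, which late replicate 4 sets.

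Krt16, an activation keratin of wounds and cultures (chromosome 11, 100246091 to 100248902 in GRCm38), had 7852 to 15017 CPM in early libraries (median 13032) and 6.69 to 2460 in late ones (median 818). Late replicates 1 and 2 were under 10 CPM, replicate 3 had 456 and replicates 4, 5 and 6 had 1180, 1267 and 2460, and every late library lay below every early one. The log2 fold change was -3.79 (SE 0.99, adjusted p = 0.0169), and -4.02 against early Fgf1 alone (adjusted p = 0.0835, not past the test). Without source set 1 the adjusted p was 0.0562, and without late replicate 6 the log2 fold change was -4.42. Tubb3, a beta-tubulin best known from neurons (chromosome 8, 123411424 to 123422015), had 87.8 to 169 CPM in early libraries (median 125) and 0 to 21.1 in late ones (median 2.53). The late values rest on 0 to 20 counts a library, and none reached the early range. Its log2 fold change was -4.02 (SE 0.61, adjusted p = 0.00101), -4.17 against early Fgf1 (adjusted p = 0.0176) and -4.72 without late replicate 6. Thbd, which encodes the thrombin receptor thrombomodulin (chromosome 2, 148404466 to 148408188), had 47.7 to 198 CPM in early libraries (median 93) and 0 to 15.8 in late ones (median 3.86). Late replicates 1 and 2 had no count. Its log2 fold change was -3.97 (SE 0.58, adjusted p = 0.00084), and -4.46 against early Fgf1 (adjusted p = 0.0111). Tubb3 and Thbd passed the filter on low counts through the early libraries. Neither was tested when 10 counts were asked of at least 10 libraries.

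Ngfr, the low-affinity neurotrophin receptor p75 (chromosome 11, 95568818 to 95587735), went the other way. It had 2 to 5 counts in each early library (0.799 to 2.51 CPM, median 1.78) and 225, 158, 655, 4, 23 and 30 counts in late replicates 1 to 6 (5.01 to 376 CPM, median 114). Replicate 4, with 4 counts, was the late library nearest to the early range. The filter on low counts removed Ngfr, so it has no value in the main test. Without the filter its log2 fold change was 6.46 (SE 0.81, adjusted p = 0.000165 with edgeR over 16477 genes). Schwann cells and melanocytes also carry Ngfr: on the Schwann and neural crest list, whose summed level was higher in every late library than in any early one, 4 of 10 genes had no count (Sox10, S100b, Gfap and Foxd3). The 1 gene of that list that was tested, Mbp, a myelin protein that other cells also make, had 13.1 to 23.6 CPM in early and 24.2 to 70.9 in late libraries (log2 fold change 1.25, adjusted p = 0.012). The part of such cells in the Ngfr counts was not tested. Of the other neurotrophin genes tested, Maged1, which binds this receptor, had 53.2 to 93.1 CPM in early and 71.6 to 254 in late libraries (log2 fold change 1.18, SE 0.28, adjusted p = 0.0106). Its call was lost with late replicates 4, 5 and 6 alone (0.59, adjusted p = 0.121). Sort1, a co-receptor, had -0.15 and did not pass (adjusted p = 0.866).

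**Figure D2:**
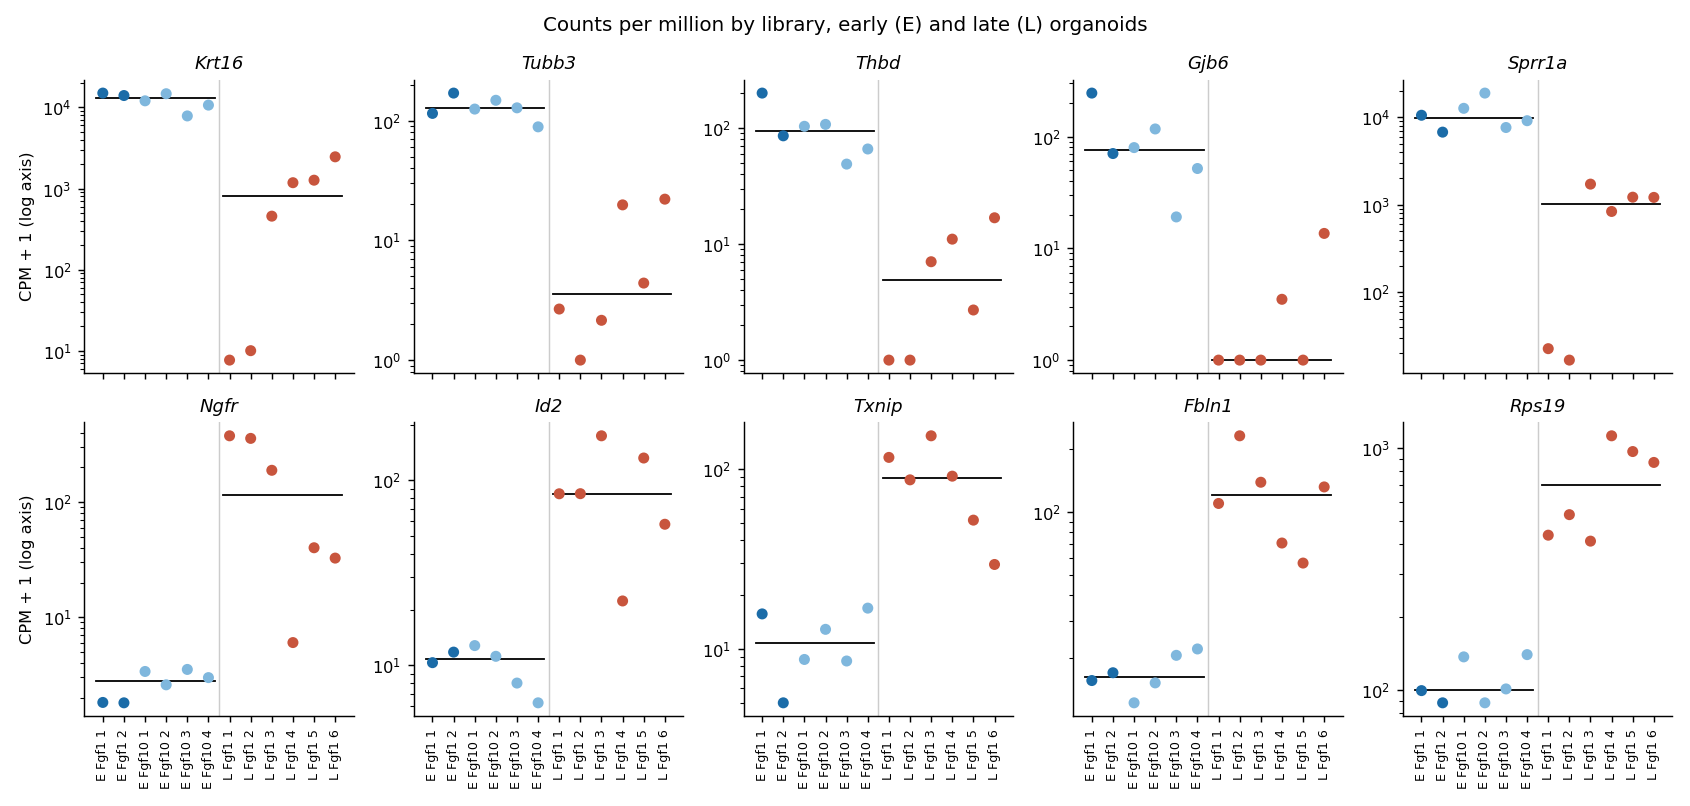
CPM plus 1 on a log axis in each of the 12 libraries (early Fgf1 dark blue, early Fgf10 light blue, late Fgf1 red) for 10 genes, with black lines at the median of the 6 early and the 6 late libraries. For Krt16, Tubb3, Thbd, Gjb6 and Sprr1a the late points lie below all early points, and for Ngfr, Id2, Txnip, Fbln1 and Rps19 above them. Late replicates 1 and 2 are the lowest for Krt16 and Sprr1a and the highest for Ngfr.

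The largest falls among well-expressed genes with no overlap between the sides were in Gjb6, Cpa4, Tubb3, Thbd, Mir6240, Krt16, Sprr1a, Sdr16c5, Tslp and Sprr1b. Gjb6, the gap junction protein connexin 30, had 18.1 to 244 CPM in early libraries and no count in late replicates 1, 2, 3 and 5, with 2.5 and 12.6 CPM in replicates 4 and 6 (log2 fold change -5.22, SE 0.91, adjusted p = 0.00196). Without late replicate 6 it was -7.75 and without replicate 3 -4.62, and the call held. Cpa4, a carboxypeptidase, had 49.5 to 313 CPM in early and 0 to 21.3 in late libraries (log2 fold change -4.23, SE 0.67, adjusted p = 0.00126). It also differed between the early media: 54.9 and 49.5 CPM with Fgf1 lay below all 4 Fgf10 libraries (123 to 313), and the log2 fold change against early Fgf1 alone was -2.67 (adjusted p = 0.0468). Sdr16c5, an epidermal retinol dehydrogenase, had 40.7 to 175 CPM in early and 0 to 29.5 in late libraries (log2 fold change -3.64, adjusted p = 0.0077, and -5.20 without late replicate 6). Tslp, an epithelial cytokine of itch and allergy, had 84.6 to 221 CPM in early and 0 to 42.5 in late libraries (log2 fold change -3.44, SE 0.60, adjusted p = 0.002, and -4.03 without late replicate 5). Mir6240, a miRNA locus, had 128 and 174 CPM with early Fgf1, 366 to 791 with Fgf10 and 3.35 to 52.6 in late libraries (log2 fold change -3.85, adjusted p = 0.000953). It also stood apart between tissue libraries of other source sets. Scaled over all 32 libraries, it had 541 to 2542 CPM in anagen follicles and 0 in each library of mixed follicles. Its fall is therefore uncertain, and the part of the source sets in it was not tested.

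Sprr1a and Sprr1b encode small proline-rich proteins of the cornified envelope and lie beside each other on chromosome 3. Sprr1a had 6750 to 18855 CPM in early libraries (median 9820) and 15.8 to 1719 in late ones (median 1024). Late replicates 1 and 2, at 21.7 and 15.8 CPM, were far below the other 4 (837 to 1719). The log2 fold change was -3.70 (SE 0.88, adjusted p = 0.0103). Sprr1b had 3942 to 12907 CPM in early and 65.2 to 2021 in late libraries (log2 fold change -3.37, SE 0.75, adjusted p = 0.0071). Against early Fgf1 alone neither passed the test (-3.36, adjusted p = 0.0942, and -3.37, adjusted p = 0.0606).

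The stretches before the start of 3 genes that were lower and of Ngfr are shown as examples chosen after the values were known. Each is the 150 bases before the gene's first base in GENCODE M21, read from RefSeq's promoter table (GRCm38.p6), 5′ to 3′ on the gene's strand, with the letters TATAAA (the TATA box), TGANTCA (the AP-1 site) and GGGCGG (the GC box) in capitals, searched on both strands.
Sprr1a (chr3:92485896-92486045, minus strand): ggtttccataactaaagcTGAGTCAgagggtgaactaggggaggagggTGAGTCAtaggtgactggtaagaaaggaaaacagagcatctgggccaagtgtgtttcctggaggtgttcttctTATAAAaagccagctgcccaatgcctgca
Sprr1b (chr3:92438790-92438939, minus strand): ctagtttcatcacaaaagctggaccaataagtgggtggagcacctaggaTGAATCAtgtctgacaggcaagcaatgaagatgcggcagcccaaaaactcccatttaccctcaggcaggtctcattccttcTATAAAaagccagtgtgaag
Cpa4 (chr6:30568219-30568368, plus strand): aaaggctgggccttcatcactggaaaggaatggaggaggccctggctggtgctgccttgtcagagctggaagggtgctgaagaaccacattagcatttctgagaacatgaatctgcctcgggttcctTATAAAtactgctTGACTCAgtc
Ngfr (chr11:95587736-95587885, minus strand): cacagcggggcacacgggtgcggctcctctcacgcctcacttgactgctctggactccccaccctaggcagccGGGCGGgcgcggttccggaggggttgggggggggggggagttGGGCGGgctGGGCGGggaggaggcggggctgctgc
Sprr1a held 1 TATA box and 2 AP-1 matches, Sprr1b and Cpa4 held 1 of each, and Ngfr held 3 GC boxes. Of 32851 windows of that length in the table, taken before the RefSeq start, 7.57% held TATAAA, 4.24% TGANTCA and 28.6% GGGCGG. Among tested genes with a window the TATA box was in 4.48% of all, 5.26% of those higher in late organoids and 4.57% of those lower. Likewise, TGANTCA was in 3.73% of all (233 of 6245), 2.58% of those lower in late organoids and 3.27% of those higher. GGGCGG was in 61.2% of tested windows, 65.9% of the higher and 54.5% of the lower genes. A match is a description of the letters and says nothing of a factor's binding.

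Of 19 tested genes of the wound and activation list, 5 were lower (26.3%, against 7.82% of all genes tested) and 2 higher, with a median log2 fold change of -0.15. The lower ones were Krt16, Tslp, Krt6a, Stfa3, a protease inhibitor, and Defb3, a beta-defensin. Stfa3 had 630 to 2558 CPM in early and 0 to 686 in late libraries, with late replicate 4 the highest by far (log2 fold change -3.23, adjusted p = 0.0191, and -4.65 without it). Krt6a had 6743 to 16919 CPM in early and 448 to 8563 in late libraries (log2 fold change -1.77, adjusted p = 0.0392), and lost its call when any 1 of 8 libraries was left out (highest adjusted p = 0.0676, without early Fgf10 replicate 1). The higher ones were Tnc, the matrix protein tenascin C, and Krt17, at 307 to 940 CPM in early and 709 to 2207 in late libraries (log2 fold change 1.15, adjusted p = 0.0313, lost without any 1 of 6 libraries, with a highest adjusted p of 0.0718 without early Fgf1 replicate 2). Without single libraries the list had 3 to 5 lower genes (3 without early Fgf10 replicate 1 or 2 or late replicate 2 or 5) and 0 to 3 higher. The other 12, among them S100a8, S100a9, Il1a and Cxcl1, did not pass. Epgn, epigen, was the 1 of 5 tested EGF receptor ligands that passed (20%): it had 404 to 1462 CPM in early and 65.8 to 268 in late libraries, with no overlap (log2 fold change -2.22, SE 0.39, adjusted p = 0.00213). Among 12 tested genes of wound proteases and the plasminogen system Thbd was the 1 that passed (8.33%, near the 7.82% of all genes tested that were lower).

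Of 12 tested tubulins, Tubb3 was lower (8.33%) and Tubb5 and Tuba1b were higher (16.7%). These shares lie near those over all genes tested, 7.82% lower and 11.2% higher. Tubb5, the main beta-tubulin of dividing cells, had 451 to 653 CPM in early and 591 to 3473 in late libraries (log2 fold change 1.79, SE 0.38, adjusted p = 0.00529). Tuba1b had 704 to 1618 and 1058 to 5053 CPM (log2 fold change 1.23, adjusted p = 0.0339, lost without any 1 of 8 libraries, with a highest adjusted p of 0.0784 without early Fgf10 replicate 1). Of 22 neuronal genes on the list, 5 could be tested: Tubb3 was lower (20%), and Ncam1, a cell adhesion molecule, was higher (20%). Ncam1, named after its values were seen, had 0.399 to 3.94 CPM in early and 36.9 to 157 in late libraries (log2 fold change 5.19, SE 0.51, adjusted p = 0.000112).

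The 10 largest rises under the same rule were in Zfp395, Tmem176a, Id2, Thbs1, Txnip, Ptprs, Fbln1, Csrp1, Rps19 and Rpl14. Zfp395, a zinc finger protein, had 1.6 to 8.29 CPM in early libraries (median 5.48) and 19 to 226 in late ones (median 62.1), with a log2 fold change of 4.11 (SE 0.62, adjusted p = 0.000953). Tmem176a, a membrane protein, had 49.1 to 122 CPM in early libraries and a median of 488, up to 2300, in late ones (log2 fold change 3.36, adjusted p = 0.00279, and 2.66 without late replicate 1). Id2, an inhibitor of basic helix-loop-helix factors and a target of BMP signals, had 5.28 to 11.8 CPM in early libraries (median 9.8) and 21.3 to 173 in late ones (median 83.7), with late replicate 4 the lowest of the 6 (log2 fold change 3.33, SE 0.42, adjusted p = 0.000576). Txnip, which inhibits thioredoxin and limits glucose uptake, had 3.99 to 15.8 and 28.4 to 152 CPM (a log2 fold change of 3.10, SE 0.42, adjusted p = 0.000782). By the rule that chose them, all 10 were higher in all 6 late libraries than in any early one.

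Several of the others act in the matrix or at the cell cortex. Fbln1, the matrix protein fibulin 1, had 11.2 to 21.1 CPM in early libraries (median 15.3) and 56 to 231 in late ones (median 120), with a log2 fold change of 2.91 (SE 0.33, adjusted p = 0.000242). Thbs1, thrombospondin 1, had 4.14 to 25.6 and 27.6 to 351 CPM (log2 fold change 3.21, adjusted p = 0.00239). Ptprs, a receptor phosphatase that binds proteoglycans, had 7.26 to 17.3 and 39 to 163 CPM (log2 fold change 2.96, adjusted p = 0.000782). Csrp1, a LIM protein of actin filaments, had 30.9 to 70.9 and 119 to 593 CPM (log2 fold change 2.80, adjusted p = 0.0005). Fbln1 and Thbs1 are also made by fibroblasts, whose markers summed to the ranges given above (0 of 1 tested marker passed).

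Rps19 and Rpl14 encode ribosomal proteins. Rps19 had 87.5 to 139 CPM in early and 411 to 1121 in late libraries (log2 fold change 2.74, SE 0.31, adjusted p = 0.000242), and Rpl14 had 23.1 to 49.5 and 159 to 435 (log2 fold change 2.56, adjusted p = 0.000242). Of 80 ribosomal protein genes, a set chosen after the values were seen, 72 were tested. Of these 20 were higher (27.8%, against 11.2% of all genes tested) and 3 lower, with a median log2 fold change of 0.29. The set took 10.2 to 15.2% of early and 11.4 to 19.5% of late counts. The same 2 genes also stood apart between tissue libraries from other source tables: scaled over all 32 libraries, Rps19 had 115 to 152 CPM in the anagen follicles and 1194 to 1589 in the mixed follicles, and Rpl14 had 17.9 to 35.9 and 228 to 295. Near-identical pseudogene copies can share their reads, so both are uncertain, and the part of the tables in their change was not tested.

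In the basal layer list 4 of 17 tested genes were higher (23.5%, against 11.2% of all) and 2 lower, with a median log2 fold change of 0.51. The higher ones were the integrins Itga3 and Itgb1, the hemidesmosome collagen Col17a1 and the caveolar protein Cav1. Itga3 had 125 to 285 CPM in early libraries and 3429, 2696, 877, 115, 391 and 170 in late replicates 1 to 6 (log2 fold change 2.75, SE 0.71, adjusted p = 0.0159). Its range overlapped the early one through replicates 4 and 6, and without replicate 1 it was 2.16. With late replicates 4, 5 and 6 alone it was 0.22 (adjusted p = 0.722), and 0 of the basal genes were higher, against 7 with replicates 1, 2 and 3 alone. Of all genes tested, 643 of 8621 were higher in the first of these fits and 1511 of 8927 in the second. The count of 4 was 2 without early Fgf10 replicate 2, 3 or 4 or late replicate 2. Sfn, the 14-3-3 protein sigma (stratifin), had 2193 to 4157 and 74.6 to 904 CPM with no overlap (log2 fold change -2.64, SE 0.54, adjusted p = 0.00475). Krt14 had 15190 to 30331 and 3866 to 16961 CPM (a log2 fold change of -1.30, SE 0.39, adjusted p = 0.0299), a call lost without any 1 of 5 libraries (highest adjusted p = 0.0624, without late replicate 2). Its partner Krt5 had 11604 to 20437 and 8348 to 17504 CPM and did not pass (log2 fold change -0.28, adjusted p = 0.553). Itga6 (0.44, adjusted p = 0.442), Ly6a (-0.78, adjusted p = 0.228) and Krt15 (1.66, adjusted p = 0.223) did not pass either.

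Genes of the suprabasal layers split the late libraries. Krt10, the keratin of the spinous layer, had 504 to 6500 CPM in early libraries, 11.7, 2.26 and 23.6 in late replicates 1, 2 and 3, and 5689, 1033 and 5847 in late replicates 4, 5 and 6. Lor, loricrin, had 1188 to 7705 CPM in early libraries and 8.36, 6.79, 15.8, 6008, 1007 and 3091 in late replicates 1 to 6. Replicates 4, 5 and 6 lay within or just below the early range and replicates 1, 2 and 3 far below it. Over all 12 libraries neither passed (Krt10 log2 fold change -0.95, SE 1.23, adjusted p = 0.62, and Lor -1.20, SE 1.19, adjusted p = 0.508). In the spinous list 0 of 14 genes tested passed with edgeR, with up to 2 lower when single libraries were left out. In the granular and cornified list Sprr1a and Sprr1b were the 2 of 35 that passed (5.71%, against 7.82% of all genes tested that were lower, and 4 without late replicate 4 or 6). The division of the late libraries follows the source sets (8 and 9 for replicates 1, 2 and 3, 10 and 11 for the rest), and the fits on each were added after seeing the data. With late replicates 1, 2 and 3 alone 12 spinous and 29 cornified genes were lower. Of all 8927 genes tested in that fit 1338 were lower and 1511 higher. With replicates 4, 5 and 6 alone 1 spinous gene was lower, and 4 cornified genes were lower and 3 higher. Of all 8621 genes tested there 537 were lower and 643 higher. List counts from these 2 fits, here and below, stand beside these unequal totals. Sprr1a, Sprr1b, Krt16, Tubb3 and Thbd were lower in both fits, which share the 6 early libraries. For these genes no late library reached the early range, so their direction was fixed for any part of the late side. The difference between the late sets was not tested.

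**Figure D3:**
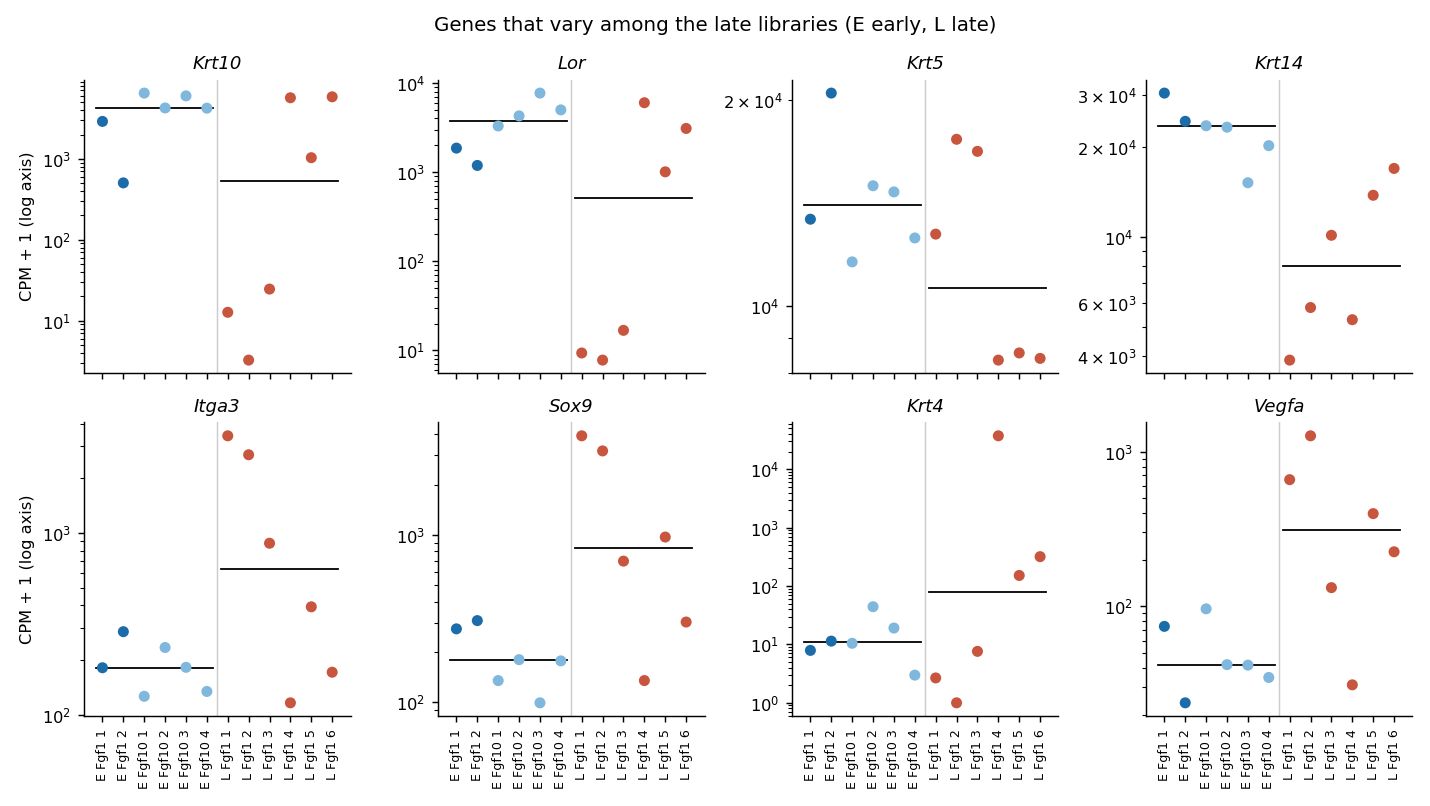
CPM plus 1 on a log axis in each of the 12 libraries for 8 genes (early Fgf1 dark blue, early Fgf10 light blue, late red; black lines are medians of 6 libraries). Krt10 and Lor are low in late replicates 1, 2 and 3 and near the early level in 4, 5 and 6, Itga3 and Sox9 are highest in replicates 1 and 2, and Krt4 reaches 37476 CPM in replicate 4.

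Genes of other stratified epithelia and of the follicle also varied within the late side. Of 7 tested genes of oral and mucosal epithelium 3 were higher (42.9%, against 11.2% of all): Sox2, Pitx1 and Krt4. With late replicates 4, 5 and 6 alone 6 were higher, and with replicates 1, 2 and 3 alone 1 was higher and 1 lower. Sox2, a transcription factor of oral epithelium and of Merkel cells, had 0 to 10.6 CPM in early and 3.35 to 208 in late libraries, with replicate 1 the lowest (log2 fold change 4.16, SE 0.82, adjusted p = 0.00386). Pitx1, a limb and oral patterning factor, had 135 to 270 and 142 to 835 CPM (log2 fold change 1.34, adjusted p = 0.0226, lost without any 1 of 3 libraries, with a highest adjusted p of 0.0546 without early Fgf10 replicate 1). Krt4, a mucosal keratin, had 1.98 to 43.3 CPM in early libraries and 1.67, 0, 6.61, 37476, 151 and 318 in late replicates 1 to 6. Its log2 fold change of 8.73 (adjusted p = 0.0175) rests on replicate 4, without which it was 2.71 (adjusted p = 0.0773). With late replicates 1, 2 and 3 alone it was -1.80. Sox9, a factor of the outer root sheath and bulge, had 98.4 to 307 CPM in early libraries and 3912, 3178, 697, 134, 971 and 301 in late replicates 1 to 6 (log2 fold change 2.97, SE 0.69, adjusted p = 0.00917), and 1.24 with late replicates 4, 5 and 6 alone (adjusted p = 0.0995).

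**Figure D4:**
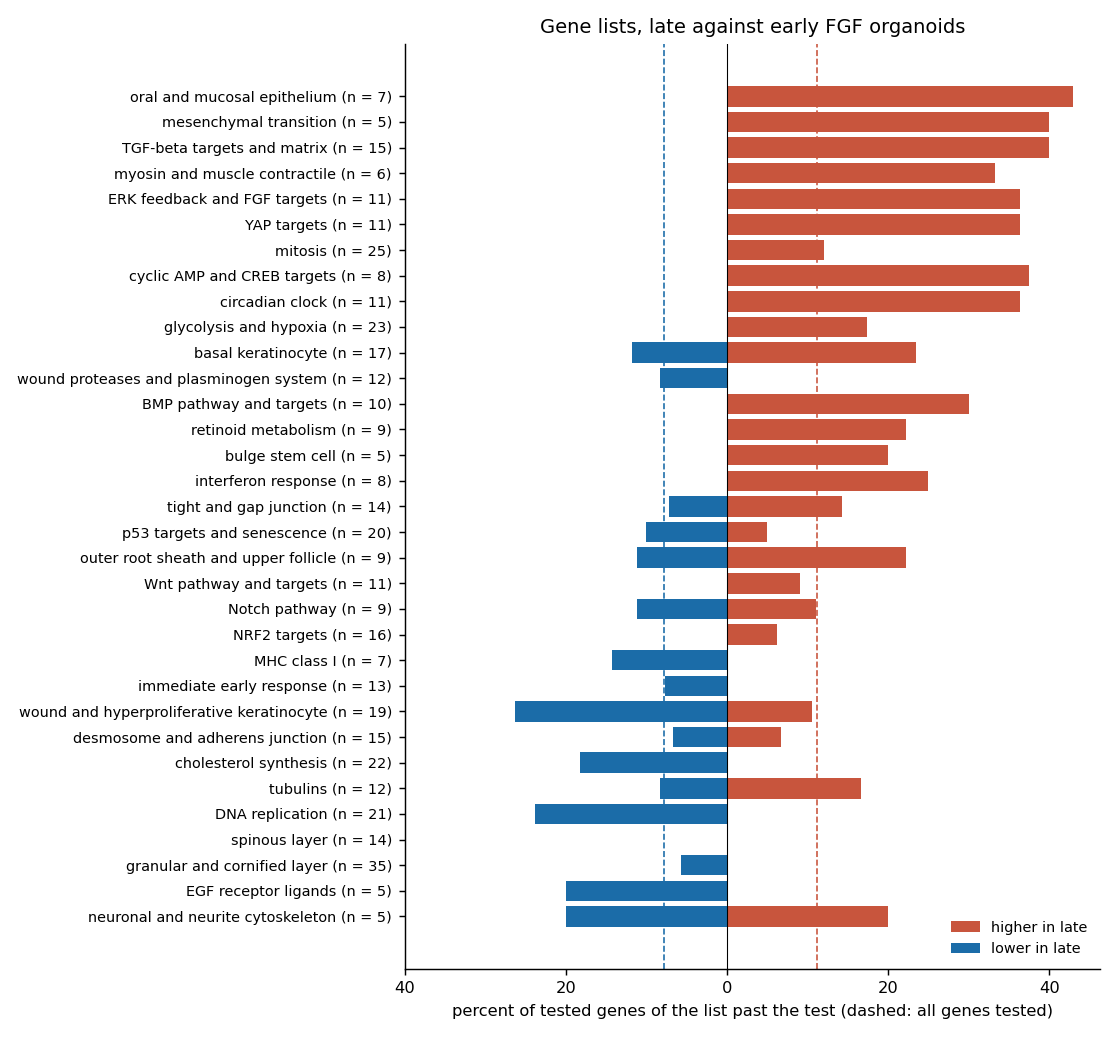
Share of the tested genes of each list that were higher (red, to the right) or lower (blue, to the left) in late organoids, in percent, for lists with at least 5 tested genes, ordered by median log2 fold change. Dashed lines mark the shares over all genes tested, 11.2% higher and 7.82% lower. The wound, cholesterol and DNA replication lists lie beyond the lower line, and the ERK feedback, TGF-beta, YAP and clock lists beyond the higher one.

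Among signalling genes, 11 of ERK feedback were tested, the brakes that FGF receptors induce through the ERK kinases. Of these Dusp6, Spry1, Spry2 and Spred1 were higher (36.4%, against 11.2% of all genes tested) and none lower, with a median of 1.24. Dusp6, an ERK phosphatase, had 28.4 to 143 CPM in early and 66.4 to 778 in late libraries (log2 fold change 2.14, SE 0.49, adjusted p = 0.00793). Spred1, a RAS inhibitor, had 32 to 41.1 and 50.1 to 197 CPM with no overlap (log2 fold change 1.37, adjusted p = 0.0118). With late replicates 4, 5 and 6 alone 1 of the list was higher. Against early Fgf1 alone, where 3.22% of all genes passed, none of the 4 did, and the log2 fold changes were 1.75 for Dusp6 and 1.27 for Spred1. Of 15 TGF-beta targets and matrix genes 6 were higher (40%, against 11.2% of all): Tgfb3, Skil, Col16a1, Thbs1, Itgav and Pmepa1. Leaving out single libraries gave 2 to 8, with 2 without early Fgf10 replicate 4 or late replicate 1 and 3 without early Fgf10 replicate 1 or either early Fgf1 library. With late replicates 4, 5 and 6 alone it was 1, and with replicates 1, 2 and 3 alone 11. Of all genes tested, 643 of 8621 were higher in the first of these fits and 1511 of 8927 in the second. Of 11 YAP targets 4 were higher (36.4%, against 11.2% of all), Axl, Crim1, Ajuba and Amotl1. In the same 2 fits, 1 was higher for late replicates 4, 5 and 6 alone and 9 for replicates 1, 2 and 3 alone. Amotl1 lost its call without any 1 of 9 libraries (highest adjusted p = 0.0813, without late replicate 1). Crim1, a membrane protein that binds growth factors, had 7.92 to 16.6 and 35.8 to 115 CPM (a log2 fold change of 2.10, SE 0.32, adjusted p = 0.000953). Of 10 BMP genes 3 were higher (30%, against 11.2% of all genes tested): Bmp2, Id2 and Id4. Bmp2, a ligand, had a log2 fold change of 1.60 (adjusted p = 0.0116). Of 8 targets of cyclic AMP 3 were higher (37.5%, against 11.2% of all), among them Pde4b, a phosphodiesterase (1.68, adjusted p = 0.0135). Jund, an AP-1 subunit, was the 1 of 13 immediate early genes that passed (7.69%, near the 7.82% of all genes tested that were lower). It had 390 to 712 and 118 to 219 CPM with no overlap (log2 fold change -1.53, SE 0.26, adjusted p = 0.00178). Ctnnb1, beta-catenin of adherens junctions, had 298 to 462 and 669 to 970 CPM with no overlap (log2 fold change 1.06, SE 0.21, adjusted p = 0.00442).

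Proliferation genes gave no single direction. Of 21 DNA replication genes 5 were lower (23.8%, against 7.82% of all genes tested), Mcm3, Mcm5, Mcm6, Pcna and Hells, and none higher. It was 3 lower without early Fgf10 replicate 3 or 4, early Fgf1 replicate 2, or late replicate 1, 5 or 6. Pcna, the polymerase clamp, had 158 to 267 and 59.2 to 172 CPM (a log2 fold change of -1.0, SE 0.27, adjusted p = 0.0178). With late replicates 1, 2 and 3 alone 0 of this list were lower and 3 were higher. Of 25 mitosis genes 3 were higher (12%, near the 11.2% of all genes tested), Ube2c, Cenpe and Knstrn. With late replicates 4, 5 and 6 alone 0 were higher, and with replicates 1, 2 and 3 alone 14. Of all genes tested, 643 of 8621 were higher in the first of these fits and 1511 of 8927 in the second. The count was 9 without late replicate 4, 5 without late replicate 3, and 1 without late replicate 1 or 2 or any early Fgf10 library. Ube2c lost its call without any 1 of 8 libraries and Cenpe without any 1 of 7, each with its highest adjusted p (0.12 and 0.138) without late replicate 1. Mki67, the proliferation marker, had 14.8 to 131 and 11.3 to 129 CPM (a log2 fold change of -0.03, SE 0.58, adjusted p = 0.981). The senescence genes Cdkn2a (p16 and Arf) and Cdkn2b (p15) did not pass (-0.54, adjusted p = 0.241, and 0.67, adjusted p = 0.198). In the p53 and senescence list Trp53 (log2 fold change -1.44, adjusted p = 0.0148) and Sesn2 were lower (4 lower without late replicate 6) and Lmnb1, a lamin of the nuclear envelope, was higher, at 12.6 to 31 and 40.8 to 104 CPM with no overlap (log2 fold change 1.54, SE 0.28, adjusted p = 0.00273).

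Of 22 genes of cholesterol synthesis 4 were lower (18.2%, against 7.82% of all genes tested) and none higher, with a median of -0.43. Sqle, squalene epoxidase, had 217 to 324 CPM in early and 49.8 to 131 in late libraries (log2 fold change -1.41, SE 0.24, adjusted p = 0.00192). Dhcr7, the last enzyme of the pathway, had 40.7 to 190 and 11.7 to 36.9 CPM (a log2 fold change of -1.76, SE 0.36, adjusted p = 0.00503). Pmvk, a kinase of the mevalonate steps, had a log2 fold change of -1.02 (adjusted p = 0.00999), and Insig1 was also lower. With late replicates 4, 5 and 6 alone 2 genes of the list were lower and 3 higher, and with replicates 1, 2 and 3 alone 15 were lower. Of all genes tested, 537 of 8621 were lower in the first of these fits and 1338 of 8927 in the second.

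Of 23 genes of glycolysis and hypoxia 4 were higher (17.4%, against 11.2% of all genes tested): Ndrg1, Vegfa, Car9 and Pgk1. There were 11 higher without late replicate 4 and 2 with late replicates 4, 5 and 6 alone. Pgk1, a glycolytic kinase, lost its call without any 1 of 9 libraries (highest adjusted p = 0.0813, without early Fgf10 replicate 3). Vegfa, the vascular growth factor, had 22.8 to 95.3 CPM in early libraries and 657, 1262, 131, 30.1, 396 and 224 in late replicates 1 to 6 (log2 fold change 3.13, SE 0.68, adjusted p = 0.00652, and 2.48 without late replicate 2). Ndrg1, a stress and differentiation gene, had 64.3 to 515 and 76.4 to 5580 CPM (a log2 fold change of 3.28, SE 0.75, adjusted p = 0.00855, and 2.69 without late replicate 5). In both, late replicate 4 lay within the early range and the other 5 late libraries above it. Of 11 clock genes 4 were higher (36.4%, against 11.2% of all), Nr1d1, Nr1d2, Tef and Per3, and 1 with late replicates 4, 5 and 6 alone. Tef, a clock output factor, had 7.7 to 19.6 and 26.3 to 97.3 CPM with no overlap (log2 fold change 2.22, SE 0.38, adjusted p = 0.00176). Nr1d1, the repressor REV-ERB alpha, had 13.2 to 66.8 and 35.1 to 701 CPM (log2 fold change 2.84, adjusted p = 0.0116, and 2.01 without late replicate 2). The time of day of harvest is not in the labels. Of 9 retinoid genes 2 were higher (22.2%, against 11.2% of all genes tested). These were Dhrs3, a retinal reductase (log2 fold change 2.52, adjusted p = 0.00205), and Rarg, the epidermal retinoic acid receptor (146 to 222 and 267 to 559 CPM, 1.24, adjusted p = 0.00391). Ifitm3, an interferon-induced membrane protein, had 116 to 272 and 245 to 2934 CPM (a log2 fold change of 2.69, SE 0.56, adjusted p = 0.00523), and with late replicates 4, 5 and 6 alone it did not pass (0.76, adjusted p = 0.0734).

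The late libraries also differed from each other over whole chromosomes. For 3931 well-expressed genes the log2 difference from the early mean was taken, centred on each library's median. Over 240 chromosome medians, 9 lay above 0.2 and 11 below -0.2. On chromosome 16 late replicates 2, 3 and 6 stood at 0.42, 0.41 and 0.38, and early Fgf10 replicate 3 at 0.27. On chromosome 8 late replicates 2 and 6 stood at 0.37 and 0.40, and on chromosome 3 late replicates 2 and 3 at -0.42 and -0.22. Chromosome 18 stood at -0.22, -0.33, -0.25 and -0.26 in late replicates 1, 2, 5 and 6, and chromosome 13 at -0.27 to -0.13 over the 6 late libraries. Chromosome 10 split the late side, with late replicates 1, 4 and 5 at -0.25, -0.24 and -0.23 and replicates 2 and 6 at 0.21 and 0.17, and 1 early library, Fgf10 replicate 3, at 0.31. Copy number was not measured. Genes named above that lie on these chromosomes are Tubb3, Itgb1, Jund, Defb3 and Mcm5 on chromosome 8, Dusp6 on 10, Pitx1 and Id4 on 13, Stfa3 on 16, Tslp, Lmnb1 and Mbp on 18, and Sprr1a, Sprr1b, Lor, Sox2, Txnip, Pmvk, Spry1, Skil, Cenpe and Sort1 on 3. A median over a chromosome does not give the shift of any 1 gene, and the part of these shifts in their changes was not tested.

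**Figure D5:**
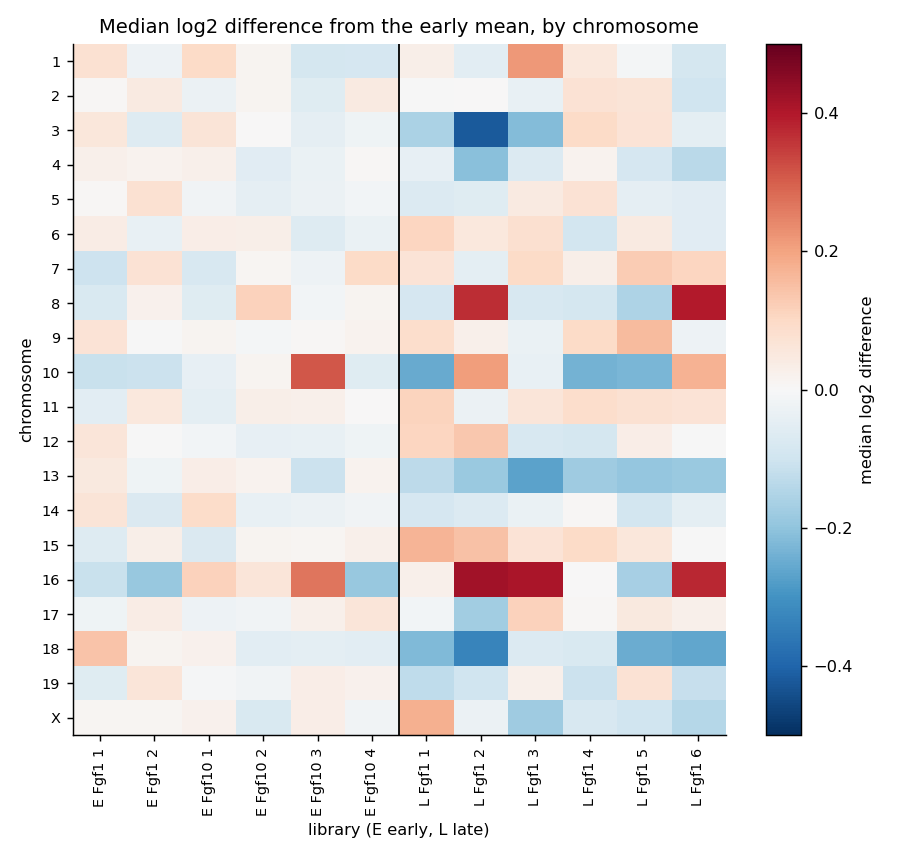
Median log2 difference from the early mean for each chromosome (rows) in each of the 12 libraries (columns, early left of the black line, late right), with red above and blue below 0. Chromosome 16 is red in late replicates 2, 3 and 6 and, paler, in early Fgf10 replicate 3, and chromosome 8 in late replicates 2 and 6.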

How the data were processed

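CEL-seq2 libraries, which count 3′ ends of polyadenylated transcripts, were made from sorted bulk cells, per the labels' protocols. The submitters' processing notes name the aligner BWA 0.6.2-r126 and the build mm10. How genes were counted, with which annotation and whether by molecular identifiers, is not given in the sources used here. All deposited files hold whole-number counts per gene name. A gene missing from a file was 0, and rows of spike-ins stayed out. Of 19974 names, 19021 matched GENCODE M21 (GRCm38) by name and chromosome.

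The 12 libraries were fitted in R 4.3.3 by edgeR 4.0.16 with the filter filterByExpr (minimum count 10, total 15), TMM scaling, and quasi-likelihood tests whose p-values were adjusted over all genes tested by Benjamini-Hochberg, with a threshold of 0.05. CPM are TMM-scaled. A fit with the media as separate groups gave the values against early Fgf1 or Fgf10 alone. DESeq2 1.42.0, limma 3.58.1, other scalings and filters, equal depth, a replicate block and libraries left out were alternatives. Simulated counts for 8109 genes gave calls for 84 of 100 with a 4-fold change, 16 of 100 with a 2-fold change and 4 of 7909 with none. The simulation gave each gene the same spread on both sides and held no source sets. The late replicates were less alike than the early ones, so these rates need not hold for the real libraries.

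Named genes were Krt16, Tubb3, Thbd and Ngfr, the 10 genes with the largest rise and the 10 with the largest fall that passed, had at least median expression, no overlap between the sides and the same sign against early Fgf1 (predicted genes and pseudogenes left out), up to 4 such well-expressed called genes per described list, and Krt5, Krt14, Krt15, Krt10, Lor, Itga6, Ly6a, Mki67, Cdkn2a and Cdkn2b. The members, the 44 lists and the rule were chosen with earlier results of these data known. Genes listed without values were called members of their list.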

Additional observations from a re-analysis of the deposited data

Results flagged for a closer look

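Within the 6 early or the 6 late libraries, 14 of 210 sets of values had 1 library whose gap to the next exceeded Dixon's 95% limit (6.67%), and chance flags about 1 in 20. Late replicate 4 had Krt4 at 37476 CPM against 0 to 318 in the other 5, and Stfa3 at 686 CPM against 0 to 105. Rpl14 stood at 435 CPM in late replicate 5 against 159 to 239, Crim1 at 115 CPM in late replicate 2 against 35.8 to 62.8, Gjb6 at 12.6 CPM in late replicate 6 against 0 to 2.5, and Ncam1 at 157 CPM in late replicate 1 against 36.9 to 61.1. Total counts were 3127190 in late replicate 3 against 412582 to 1050073. In the early libraries Krt15 was at 222 CPM in Fgf10 replicate 4 against 12 to 75.6, Cldn4 at 128 CPM in Fgf10 replicate 2 against 13.2 to 52.1, and Myh9 at 143 CPM in Fgf1 replicate 2 against 63.9 to 87.5. Of the chromosome medians, chromosome 10 stood at 0.31 in early Fgf10 replicate 3, chromosome 11 at -0.0285 in late replicate 2, and chromosomes 9 and 12 at 0.0695 and 0.0605 in early Fgf1 replicate 1.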

How the results depend on the processing

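The count of 1542 genes was within 1.5 times under RLE and upper quartile scaling, other filters, limma-voom and the equal-weight mean of the media. With 10 counts asked of at least 10 libraries, 1158 of 5725 genes passed. Tubb3, Thbd, Gjb6, Cpa4, Sdr16c5, Tslp, Zfp395, Krt4 and Sox2 were not tested under that filter. With DESeq2 983 genes were lower. Thinned to equal depth 826 passed (487 higher, 339 lower), where fewer genes were tested. Against early Fgf1 alone 261 passed (120, 141), against Fgf10 alone 959 (560, 399), and with 18 libraries in 5 groups 2430 (1416, 1014). Leaving out each library gave 1163 to 1967 (673 to 1133 higher, 482 to 834 lower). Without set 1 the count was 793 (473, 320), and without set 2, which leaves 2 early libraries, 3 (0 higher, 3 lower, with 1439 at an unadjusted p under 0.05). Late replicates 1, 2 and 3 alone gave 2849 (1511, 1338) and replicates 4, 5 and 6 alone 1180. The counts with the same sign against early Fgf1 moved likewise (826, 793, 3 and 2849). The last 2 fits and a Y-linked covariate (1417) were added after seeing the data. No cause of these moves was tested, apart from the fewer libraries or genes named.

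Among the named genes these changed direction, in log2 fold change, beside those under the replicate block below. Over all called genes that could be tested, 4 changed sign with late replicates 4, 5 and 6 alone, 1 with replicates 1, 2 and 3 alone and 1 under the replicate block. Krt15 was -0.0362 with limma-voom. Krt10 was 0.30 and Lor 0.15 against early Fgf1 alone, and Krt10 0.0324 with late replicates 4, 5 and 6. Mki67 (-0.367 to 0.352 without single libraries) was 0.25 against Fgf10 alone, 0.0875 to 0.352 without early Fgf10 replicate 3, early Fgf1 replicate 2 or late replicates 4, 5 or 6, 1.31 without set 2, 0.407 without set 10 and 0.648 with late replicates 1, 2 and 3. Krt4 was -1.80 and Krt5 0.0662 with late replicates 1, 2 and 3. Ly6a was 0.0449 without set 2. Itga6 was -0.36 without set 8, and with late replicates 4, 5 and 6 it was -0.53 and Itgav -0.0966. Of 73 named genes past the test, 55 kept the call without each single library, 41 without set 1 and 19 against early Fgf1 alone. Many were named for the size of their change in these data, which favours keeping a call. Of all 1542 called genes, 718 also passed without set 1, where 1516 were tested, and 254 against early Fgf1 alone.

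With the replicate block 1391 genes passed (768, 623), Krt4 was -0.80 and Mki67 0.37. Same-numbered libraries had correlations of deviations from group means from -0.167 to 0.132. The deviations of the 2 early Fgf1 libraries mirror each other, and differently numbered libraries were not compared. Whether the numbers pair the samples therefore cannot be read from these correlations. Early Fgf10 replicates 2, 3 and 4 had 2.01, 6.02 and 143 CPM of Y-linked genes, against 172, 86.7 and 0 in late replicates 2, 3 and 4. Early Fgf1 replicate 1 had 128 and late replicate 1 had 3.59. Early Fgf10 replicate 1 (5.28) was like late replicate 1, and early Fgf1 replicate 2 (107) like late replicate 2. The numbers therefore do not pair all samples by animal, and the block fit is not a paired test.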
